A study of Mus musculus with 50 samples.

Results

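Expression of 10 genes that report the transcriptional output of the RAS-ERK (MAPK) pathway was examined in livers and liver tumours of C3H/He mice. The genes were chosen by symbol, with earlier results of these data known. They were Dusp4, Dusp5, Dusp6, Spry1, Spry2, Spry4, Spred1, Etv4, Etv5 and Phlda1, and all 10 were among the 45792 genes of the count table. C3H/He is an inbred strain that develops liver tumours spontaneously with age, and the study's methods describe male mice. By the labels, all tissues were taken at 48 weeks. Mice received a control diet or the American lifestyle (ALIOS) diet, which is rich in trans fat and given with fructose in the drinking water, with or without diethylnitrosamine (DEN), a chemical liver carcinogen. The dose and timing of DEN are not given in the sources used here. Of the libraries, 12 held non-tumour liver of control diet mice (N1 to N12) and 11 that of ALIOS mice (N13 to N23). The others were 1 tumour on the control diet (T7), 12 tumours on the ALIOS diet (T2 to T6 and T8 to T14), 5 tumours of DEN-treated mice on the control diet (T17 to T21) and 8 tumours of DEN-treated mice on the ALIOS diet (T15, T16 and T22 to T27). Another ALIOS tumour, T1, was left out by the rule that defined the libraries used. The study also treated T1 as an outlier and kept it out of its comparison with human tumours. In the library of T1, 8 kidney genes together took 44643 CPM (counts scaled to a library of a fixed size). No non-tumour liver of a DEN-treated mouse is among the libraries, so an effect of DEN and an effect of being tumour cannot be told apart when DEN tumours are set against livers.

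Growth factor receptors pass their signal through RAS proteins to the RAF, MEK and ERK kinases. Active ERK switches on a set of genes, many of which encode inhibitors of the same pathway, so their transcripts are widely read as a gauge of ERK activity. In mouse liver, activating Ras and Raf mutations are well known drivers of carcinogen-induced and spontaneous hepatocellular tumours, while tumours driven by beta-catenin form another well known class.

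Total counts per library ran from 23798251 to 45751398 with a median of 32351263. Levels are given as CPM after TMM scaling over the 49 libraries. The 9 measured hepatocyte markers, such as Alb, were detected in every group and together took between 78580 and 249777 CPM per library. Because the tissues were whole pieces of liver or tumour, fewer cells of a type and less RNA per cell cannot be told apart. By the study's text the tumours of mice without DEN came from a mouse each. The labels do not say this of the other groups, nor whether a tumour and a liver came from the same mouse, so p-values measure the spread between these samples.

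The RefSeq table of mouse promoters (GRCm38.p6) matched 6 of the 10 genes with 7 windows. ERK acts on many of its targets through ETS family transcription factors, which recognise a GGAA core, so the 250 bases before the transcription start are shown for 3 genes that rose in the tumours, with GGAAG or its reverse complement CTTCC in capitals.
Dusp6 (chr10:99262981-99263230, plus strand): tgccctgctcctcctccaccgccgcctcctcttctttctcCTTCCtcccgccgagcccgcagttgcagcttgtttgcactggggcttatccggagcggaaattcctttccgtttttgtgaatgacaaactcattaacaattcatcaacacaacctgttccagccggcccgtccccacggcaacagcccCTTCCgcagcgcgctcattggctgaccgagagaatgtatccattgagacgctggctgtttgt
Spred1 (chr2:117120821-117121070, plus strand): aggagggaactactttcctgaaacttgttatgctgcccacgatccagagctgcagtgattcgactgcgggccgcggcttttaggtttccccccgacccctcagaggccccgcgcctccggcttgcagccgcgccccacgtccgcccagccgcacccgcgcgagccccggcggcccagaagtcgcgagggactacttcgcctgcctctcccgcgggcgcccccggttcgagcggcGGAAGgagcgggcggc
Spry2 (chr14:105896820-105897069, minus strand): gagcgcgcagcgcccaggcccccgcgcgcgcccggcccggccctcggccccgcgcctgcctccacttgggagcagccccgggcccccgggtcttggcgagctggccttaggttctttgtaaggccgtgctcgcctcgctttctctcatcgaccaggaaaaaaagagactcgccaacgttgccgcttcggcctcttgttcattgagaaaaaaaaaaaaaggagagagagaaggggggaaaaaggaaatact
The longer ETS-type word CGGAAG, searched on both strands, was present 62 to 57 bases before the start of Dusp6 and 17 to 12 bases before that of Spred1, by the RefSeq starts, and in 2 of the 7 windows in all, against 13.6% of 32851 promoters. GGAAG, which CGGAAG contains, was in 4 of the 7 windows and in 64.1% of all promoters. The AP-1 word TGANTCA and the CRE word TGACGTCA were in none of the 7 windows, against 6.75% and 1.55% of all promoters. The RefSeq start of Spred1 lies upstream of the Gencode start given with its levels. A match is a description of the letters and not a bound site, and no binding was measured.

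The first group of genes encodes dual-specificity phosphatases that remove the activating phosphates from ERK. Dusp6 acts on ERK in the cytoplasm and Dusp5 on ERK in the nucleus, while Dusp4 is a nuclear phosphatase with a wider choice of MAP kinases. Of the 10 genes, Dusp5 separated tumours from livers most completely.

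Dusp5 (ENSMUSG00000034765.6, chromosome 19, 53529109 to 53542431, plus strand, GRCm38) was near the floor in liver. Control diet livers ranged from 0.217 to 1.01 CPM with a median of 0.335, and ALIOS livers from 0.291 to 0.924 CPM with a median of 0.488. ALIOS tumours ranged from 1.54 to 26.2 CPM with a median of 15.4, and ALIOS DEN tumours from 1.90 to 27.3 CPM with a median of 14.1. The 5 control diet DEN tumours, T17 to T21, had 34.3, 21.9, 49.4, 46.4 and 9.22 CPM. All 25 of these tumours lay above every liver of their diet, and so did T7 with 13.2 CPM. By edgeR, Dusp5 was 28.0-fold higher in ALIOS tumours than in ALIOS livers (log2 fold change 4.81, SE 0.44, adjusted p = 6.17e-08), 30.8-fold higher in ALIOS DEN tumours (4.94, SE 0.38, adjusted p = 2.21e-08) and 80.5-fold higher in control diet DEN tumours than in control diet livers (6.33, SE 0.33, adjusted p = 1.28e-11). An antisense gene, AC137853.2, overlaps exons of Dusp5, and no source says whether counting used the strand, so reads of the pair cannot be told apart.

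Dusp6 (ENSMUSG00000019960.7, chromosome 10, 99263231 to 99267489, plus strand) was already expressed in liver, at 15.9 to 47.1 CPM (median 28.1) on the control diet and 22.6 to 45.9 CPM (median 31) on the ALIOS diet. Per kilobase of exon it was, with Phlda1, the highest of the 10 genes in ALIOS livers, with a median of 9.90 CPM per kilobase against 11.3 for Phlda1 and 3.82 for Spred1. ALIOS tumours had 33.1 to 182.0 CPM (median 109.2) and ALIOS DEN tumours 46.3 to 181.9 CPM (median 127.4). T17 to T21 had 168.1, 133.4, 117.1, 166.2 and 99.3 CPM. Every tumour of the DEN groups exceeded all livers of its diet, and 10 of 12 ALIOS tumours did. The exceptions were T2 and T6, at 34.8 and 33.1 CPM. Dusp6 rose 3.12-fold in ALIOS tumours (log2 1.64, SE 0.22, adjusted p = 2.64e-06), 3.94-fold in ALIOS DEN tumours (1.98, SE 0.19, adjusted p = 2.35e-07) and 4.72-fold in control diet DEN tumours (2.24, SE 0.20, adjusted p = 2.06e-08).

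Dusp4 (ENSMUSG00000031530.6, chromosome 8, 34807297 to 34819894, plus strand) rose less and overlapped the livers more. Livers had 0.506 to 2.11 CPM on the control diet and 0.701 to 2.05 CPM on the ALIOS diet. ALIOS tumours spread from 0.376 to 6.24 CPM (median 1.54) and ALIOS DEN tumours from 0.232 to 5.70 CPM (median 2.95), both wider than the livers in each direction. T17 to T21 had 8.27, 4.63, 2.56, 4.12 and 1.60 CPM, and T7 had 1.71 CPM. In all, 14 of the 25 tumours exceeded every liver of their diet, and T2, T3 and T23 lay below every one. Dusp4 was 1.88-fold higher in ALIOS tumours (log2 0.91, SE 0.35, adjusted p = 0.0349), a call lost without T9 (adjusted p = 0.0602) or T11 (0.62, adjusted p = 0.101). It was 2.53-fold higher in ALIOS DEN tumours (1.34, SE 0.37, adjusted p = 0.00570) and 3.25-fold higher in control diet DEN tumours (1.70, SE 0.30, adjusted p = 8.49e-05).

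**Figure D1:**
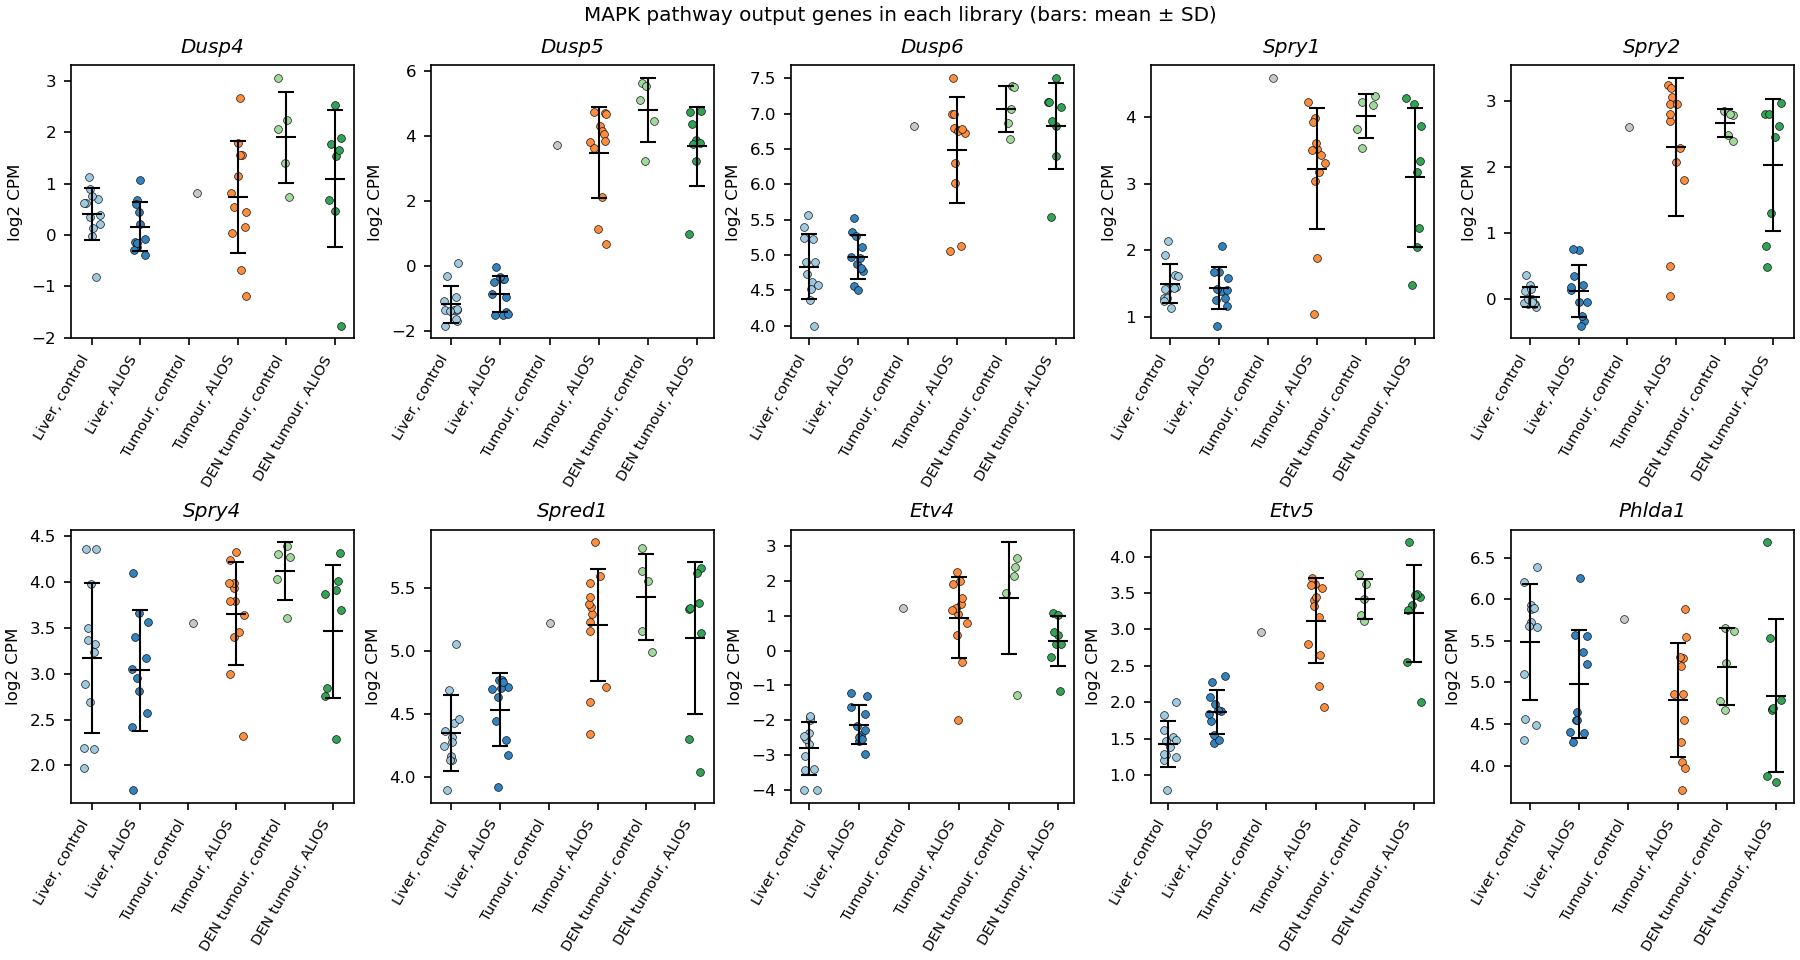
Level of each of the 10 genes in each of the 49 libraries, as log2 CPM (vertical axes, scaled per gene), by group (horizontal axes). Each point is 1 library, and the bars are the mean ± SD of groups with more than 1 library. Dusp5 and Etv4 show a wide gap between livers and most tumours, while the groups overlap for Phlda1 and largely for Spry4.

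The second group encodes Sprouty and Spred proteins, membrane-associated inhibitors that act between the receptor and RAF. Spry1 and Spry2 rose in all 3 tumour groups, and Spry4 and Spred1 rose by smaller amounts.

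Spry1 (ENSMUSG00000037211.10, chromosome 3, 37639947 to 37644598, plus strand) had 2.12 to 4.34 CPM in control diet livers (median 2.62) and 1.75 to 4.13 CPM in ALIOS livers (median 2.59). It reached 1.99 to 18.7 CPM in ALIOS tumours (median 11.1) and 2.73 to 19.5 CPM in ALIOS DEN tumours (median 9.58). T17 to T21 had 18.1, 14.1, 18.8, 19.9 and 11.6 CPM. T7, the control diet tumour without DEN, had the highest level of all libraries at 24.2 CPM. The control diet DEN tumours did not overlap their livers, whereas T2, T6, T23 and T24 stayed within the range of the ALIOS livers. Spry1 was 3.97-fold higher in ALIOS tumours (log2 1.99, SE 0.26, adjusted p = 1.74e-06), 4.03-fold in ALIOS DEN tumours (2.01, SE 0.31, adjusted p = 3.12e-05) and 6.04-fold in control diet DEN tumours (2.59, SE 0.15, adjusted p = 6.71e-11). An antisense gene, Gm42922, overlaps it, with a median of 1 count.

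Spry2 (ENSMUSG00000022114.4, chromosome 14, 105891947 to 105896819, minus strand) had 0.858 to 1.23 CPM (median 0.921) in control diet livers and 0.692 to 1.63 CPM in ALIOS livers (median 1.04). ALIOS tumours had 0.976 to 9.39 CPM (median 6.68) and ALIOS DEN tumours 1.34 to 7.74 CPM (median 5.78). T17 to T21 had 7.11, 6.88, 5.18, 6.93 and 5.54 CPM. The control diet DEN tumours thus lay close together and far above their livers, and T2, T6 and T23 were the tumours that did not exceed all livers of their diet. Spry2 was 5.54-fold higher in ALIOS tumours (log2 2.47, SE 0.31, adjusted p = 1.19e-06), 4.72-fold in ALIOS DEN tumours (2.24, SE 0.31, adjusted p = 1.10e-05) and 6.72-fold in control diet DEN tumours (2.75, SE 0.12, adjusted p = 8.30e-13).

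Spred1 (ENSMUSG00000027351.12, chromosome 2, 117121374 to 117182279, plus strand) had 14.8 to 33.3 CPM in control diet livers (median 19.7) and 15.1 to 27.3 CPM in ALIOS livers (median 25.9). It had 20.2 to 58.4 CPM in ALIOS tumours (median 39.9), 16.4 to 50.6 CPM in ALIOS DEN tumours (median 40.4), and 49.6, 47.1, 31.9, 35.7 and 56.3 CPM in T17 to T21. In 19 of 25 tumours the level was above every liver of the diet. It was 1.64-fold higher in ALIOS tumours (log2 0.72, SE 0.15, adjusted p = 0.000321), 1.63-fold in ALIOS DEN tumours (0.70, SE 0.18, adjusted p = 0.00427) and 2.18-fold in control diet DEN tumours (1.13, SE 0.16, adjusted p = 6.39e-06).

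Spry4 (ENSMUSG00000024427.6, chromosome 18, 38586247 to 38601415, minus strand) varied widely in liver itself, from 3.87 to 20.6 CPM on the control diet (median 9.66) and from 3.25 to 17 CPM on the ALIOS diet (median 8.22). ALIOS tumours had 4.95 to 20.1 CPM (median 13.8), ALIOS DEN tumours 4.84 to 20.0 CPM (median 13.7), and T17 to T21 had 19.8, 20.9, 12.1, 16.4 and 19.3 CPM. Only 4 of the 25 tumours exceeded every liver of their diet. The log2 difference was 0.59 in ALIOS tumours (SE 0.23, adjusted p = 0.0364), and the call was lost without T4 (adjusted p = 0.0512), T9 (adjusted p = 0.0524) or T14 (adjusted p = 0.0650). In control diet DEN tumours it was 0.82 (SE 0.33, adjusted p = 0.0455), lost without T17 (adjusted p = 0.0899), T18 (adjusted p = 0.0999), T20 (adjusted p = 0.0749) or T21 (adjusted p = 0.0905). In ALIOS DEN tumours it was 0.51 (SE 0.29, adjusted p = 0.156) and was not called, which does not show that Spry4 did not differ there.

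The third group encodes Etv4 and Etv5, ETS transcription factors of the PEA3 subfamily that ERK both induces and phosphorylates. Etv4 (ENSMUSG00000017724.12, chromosome 11, 101769742 to 101785371, minus strand) had 0 to 7 reads in the control diet livers and 2 to 11 reads in the ALIOS livers, at most 0.211 and 0.363 CPM. ALIOS tumours had 0.188 to 4.76 CPM (median 2.24) and ALIOS DEN tumours 0.386 to 2.07 CPM (median 1.19). T17 to T21 had 5.27, 3.06, 6.28, 4.33 and 0.351 CPM. T21 was thus far below the other control diet DEN tumours, though above every control diet liver, and T2 was the tumour that did not exceed all livers of its diet. Etv4 was 12.5-fold higher in ALIOS tumours (log2 3.64, SE 0.40, adjusted p = 3.11e-07), 7.01-fold in ALIOS DEN tumours (2.81, SE 0.33, adjusted p = 1.73e-06) and 38.6-fold in control diet DEN tumours (5.27, SE 0.50, adjusted p = 6.04e-08), folds that rest on few reads in the livers. Etv4 was too low to be tested among livers alone and passed the filter through the tumours, where it is high, so its calls are no independent support.

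Etv5 (ENSMUSG00000013089.13, chromosome 16, 22381309 to 22439719, minus strand) had 1.67 to 3.96 CPM in control diet livers (median 2.64) and 2.66 to 5.09 CPM in ALIOS livers (median 3.62). ALIOS tumours had 3.76 to 12.9 CPM (median 10.3), ALIOS DEN tumours 3.94 to 18.3 CPM (median 10.4), and T17 to T21 had 12.2, 13.5, 9.10, 8.60 and 10.6 CPM. The tumours T2, T6 and T23 lay within the liver range and the other 22 above it. Etv5 was 2.54-fold higher in ALIOS tumours (log2 1.34, SE 0.19, adjusted p = 4.12e-06), 2.86-fold in ALIOS DEN tumours (1.51, SE 0.21, adjusted p = 1.20e-05) and 4.14-fold in control diet DEN tumours (2.05, SE 0.15, adjusted p = 1.84e-09).

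Phlda1 (ENSMUSG00000020205.8, chromosome 10, 111506286 to 111508645, plus strand) encodes a small pleckstrin homology-like protein induced by growth factors and by stress. It behaved unlike the other 9 genes. Livers had 19.7 to 83.8 CPM on the control diet (median 52.1) and 19.4 to 76.2 CPM on the ALIOS diet (median 24.9). ALIOS tumours had 13 to 58.8 CPM (median 29.0), ALIOS DEN tumours 13.9 to 103.0 CPM (median 25.8), and T17 to T21 had 27.3, 25.4, 37.5, 49.1 and 50.2 CPM. T24 was the single tumour above every liver of its diet, and 6 of the 25 tumours lay below every one. The log2 difference from liver was -0.18 in ALIOS tumours (95% interval -0.73 to 0.37, adjusted p = 0.592), 0.07 in ALIOS DEN tumours (-0.66 to 0.81, adjusted p = 0.881) and -0.34 in control diet DEN tumours (-0.97 to 0.29, adjusted p = 0.362). Without T24 the value in ALIOS DEN tumours was -0.38. Gm28592 overlaps it on the opposite strand, with a median of 8 counts.

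The 10 genes were chosen with earlier results of these data known, so the counts that follow are a description. Counted together, 9 of the 10 genes were called higher in ALIOS tumours than in ALIOS livers, where 26.9% of the 14183 genes tested were. Their median log2 difference was 1.49, against 0.01 over all genes. In ALIOS DEN tumours 8 of 10 were higher, against 27.7% of 14434 genes, with a median of 1.75 against 0.08. In control diet DEN tumours 9 of 10 were higher, against 27.3% of 14731 genes, with a median of 2.14 against 0.03. None of the 10 was called lower in any of the 3, and without Etv4 the counts were 8, 7 and 8 of 9. With every tumour above every liver, the count was 1 gene (Dusp5) in ALIOS tumours against 1.24% of all genes. It was 3 genes (Dusp5, Dusp6 and Etv4) in ALIOS DEN tumours against 4.32%. In control diet DEN tumours it was 6 genes (Dusp5, Dusp6, Spry1, Spry2, Etv4 and Etv5) against 11.8%. Etv4 passed the filter through the tumours, so its place in these counts is no independent support. The 2 ALIOS comparisons share their livers, so they are not independent of each other.

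**Figure D2:**
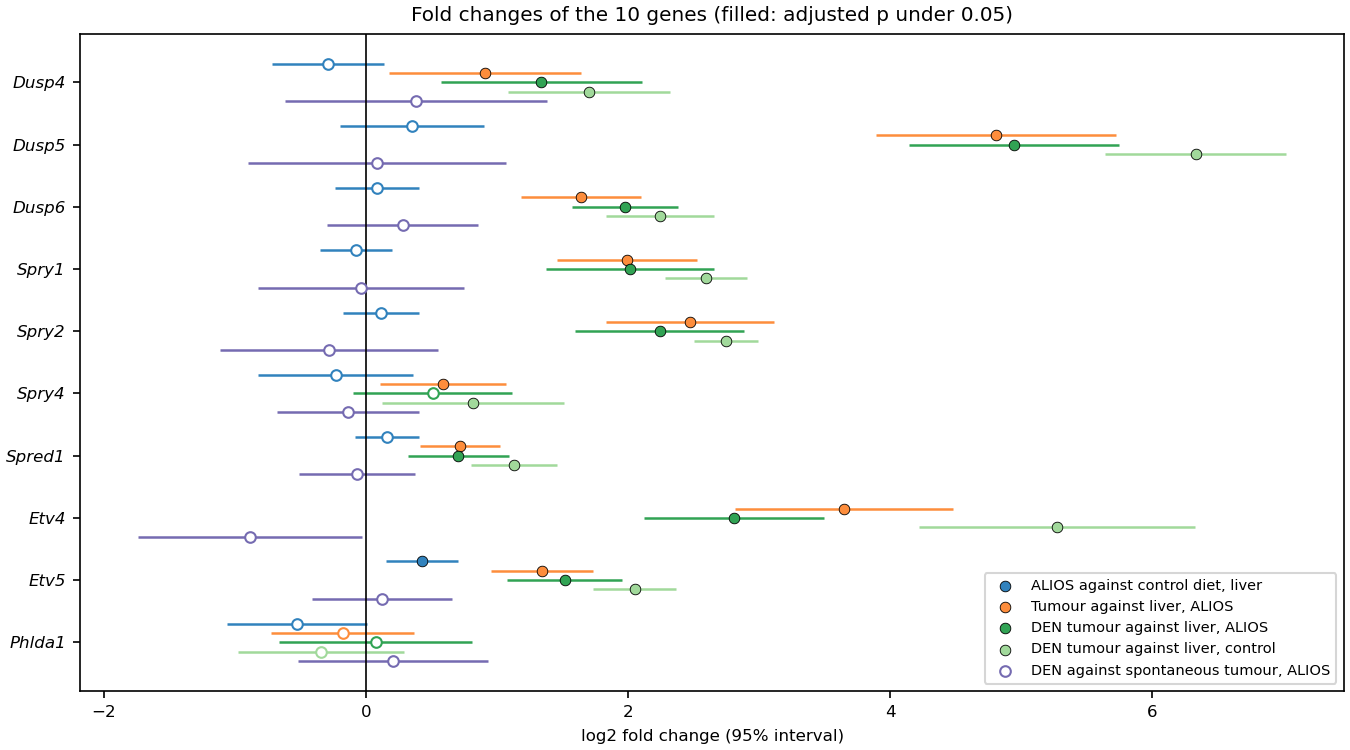
Log2 fold change (horizontal axis) of each gene in 5 comparisons, with 95% intervals from edgeR. Filled points have an adjusted p under 0.05. The points of the 3 comparisons of tumour with liver lie to the right of 0 for all genes but Phlda1. The interval of Spry4 in ALIOS DEN tumours crosses 0. The points of diet in liver and of DEN against spontaneous tumours lie between -0.89 and 0.43, with Etv5 the single filled point among them. Etv4 was not tested for diet in liver.

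Between the diets, 1 of these genes was called in non-tumour liver. Of the 9 tested, Etv5 was called, 1.35-fold higher on the ALIOS diet (log2 0.43, SE 0.13, adjusted p = 0.0393), where 6.73% of 13723 genes were called higher. That call was lost when any of 12 livers was left out (N1, N2, N3, N6, N7, N11, N12, N14, N17, N19, N22 or N23), with adjusted p up to 0.0834 without N19. The other 8 tested genes had log2 differences between -0.53 (Phlda1, adjusted p = 0.179) and 0.35 (Dusp5, adjusted p = 0.397). Etv4 did not pass the filter on low counts. Markers of other cells moved with diet in the same livers. Of stellate and fibroblast markers 3 of 10 were higher on the ALIOS diet, of cholangiocyte markers 2 of 8 tested, of proliferation genes 2 of 5 tested and of the further ERK output genes 3 of 8 tested (Mmp12 3.19, Ccnd1 1.70 and Epha2 0.59). Of macrophage markers 7 of 12 were higher, with a summed level of 149 to 396 CPM on the control diet and 215 to 658 CPM on the ALIOS diet, and the part of these cells in the Etv5 difference was not tested.

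Tumours with and without DEN were compared on the ALIOS diet, since both groups hold several tumours there. None of the 10 genes was called by edgeR, and neither was any of the 14845 genes tested (0%), although 1079 had an unadjusted p under 0.05, and DESeq2 called 86 genes, none of them among the 10. The intervals of the log2 differences were wide, from -0.90 to 1.06 for Dusp5 and from -0.30 to 0.86 for Dusp6. The lowest p belonged to Etv4, 0.89 lower in DEN tumours on the log2 scale (log2 difference -0.89, SE 0.41, p = 0.0426, adjusted p = 0.653).

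Among DEN tumours, diet was compared in 8 ALIOS and 5 control diet tumours. None of the 10 genes was called by edgeR, where 0.0134% of 14944 genes (2 genes) were, 1273 had an unadjusted p under 0.05, and DESeq2 called 152 genes, none of the 10. The log2 differences ran from -0.09 (Etv5) to -1.60 (Etv4, SE 0.51, p = 0.00710, adjusted p = 0.392). Those of Etv5 and Phlda1 turned positive when single tumours were left out, to 0.03 for Etv5 without T23 and 0.03 for Phlda1 without T21. Dusp5 followed with -1.01 (95% interval -2.07 to 0.05, adjusted p = 0.622). Whether the step from liver to DEN tumour depended on diet was tested as an interaction, which called 2.27% of 15606 genes. Etv4 was called, with a step 2.46 smaller on the ALIOS diet on the log2 scale (interaction -2.46, SE 0.64, adjusted p = 0.0341), and the other 9 were not, Dusp5 coming next at -1.38 (SE 0.53, adjusted p = 0.166). Etv4 had at most 11 reads in any liver and passed the filter through the tumours, so the liver side of this value rests on levels that could not be tested on their own. The Etv4 call was lost without T17 (adjusted p = 0.0738), T19 (adjusted p = 0.0725) or T20 (adjusted p = 0.0629), and without T21 the value was -2.76 (adjusted p = 0.00889). Among the other lists the same interaction called a higher step on the ALIOS diet for 7 of 12 beta-catenin targets, such as Nkd1 (5.49), Glul (4.81) and Oat (4.74). Glul was uneven among ALIOS DEN tumours, at 17555 CPM in T24, 2370 CPM in T25 and 23.9 CPM in T16. In control diet DEN tumours it ran from 33.9 to 151 CPM. Leave-one-out values were taken for the 10 genes only. Of the further ERK output genes, Ccnd1 (-2.15) and Mmp12 (-3.82) had a lower step on the ALIOS diet. Both were already higher on that diet in the livers, which enter the step. The part of these genes in the Etv4 value was not tested. Diet in DEN tumours alone called none of 11 beta-catenin targets by edgeR.

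Each tumour was then read on its own, by counting the genes that exceeded every liver of the same diet. ALIOS tumours had 1 to 9 of the 10 above (median 7.5), ALIOS DEN tumours 3 to 9 (median 8) and control diet DEN tumours 7 to 9 (median 8), while T7 had 7 above the 12 control diet livers. Over the 17728 genes that passed the low-count filter, 14.3% to 32.5% exceeded the livers in the same way in a tumour of these groups. Only T13, T16 and T18 had 9 of 10 above, each lacking Phlda1 alone. The tumours with the fewest were T2 with 1 (Dusp5), T6 with 2 (Dusp5 and Etv4) and T23 with 3 (Dusp5, Dusp6 and Etv4), against 20.0%, 14.3% and 19.7% of all genes. Etv4, which these counts include, was too low to be tested among livers alone.

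In T2, T6 and T23 other genes were also examined. Their Dusp5 levels of 2.14, 1.54 and 1.90 CPM were the lowest of the 26 tumours, yet above the ALIOS livers. Glul, a pericentral beta-catenin target, was at 1230, 856 and 759 CPM in them, within the 520 to 1330 CPM of ALIOS livers, against medians of 67.5 CPM in ALIOS tumours and 320 CPM in ALIOS DEN tumours. T22, with 8 genes above the livers, was also within that liver range, at 554 CPM of Glul. T3 was just below it at 498 CPM, T25 and T24 were far above it, and the other ALIOS diet tumours were lower than T3. Axin2, another target of beta-catenin, was at 5.07 and 4.24 CPM in T2 and T6, within the 3.20 to 5.50 CPM of ALIOS livers, and above it at 9.65 CPM in T23. Afp, the fetal serum protein used as a liver tumour marker, was at 3.49, 4.95 and 19.2 CPM, against at most 1.29 CPM in ALIOS livers and medians of 295 CPM in ALIOS tumours and 363 CPM in ALIOS DEN tumours. In the study's own clustering of these libraries, T6 was the single tumour placed among the non-tumour livers. These 3 tumours were picked here by their low output, so their values are a description, and the part of admixed non-tumour liver in them was not tested.

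T24 showed another mixture. It had the highest Dusp4 (5.70 CPM), Etv5 (18.3 CPM) and Phlda1 (103.0 CPM) of the ALIOS DEN tumours, with Dusp6 at 143.6 CPM and Dusp5 at 13.2 CPM, but Spry1 at 2.73 CPM and Spry4 at 7.14 CPM were within the ALIOS liver range. The same tumour had 17555 CPM of Glul and 104 CPM of Axin2, and it had 60.03 CPM of Krt19 and 474 CPM of Col1a1. T25, with Glul at 2370 CPM and Axin2 at 13 CPM, had 6 of the 10 genes above the livers, and Dusp5 at 9.24 CPM. High levels of beta-catenin targets and of ERK output genes were therefore seen in the same library, and whether in the same cells cannot be told from whole tissue.

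**Figure D3:**
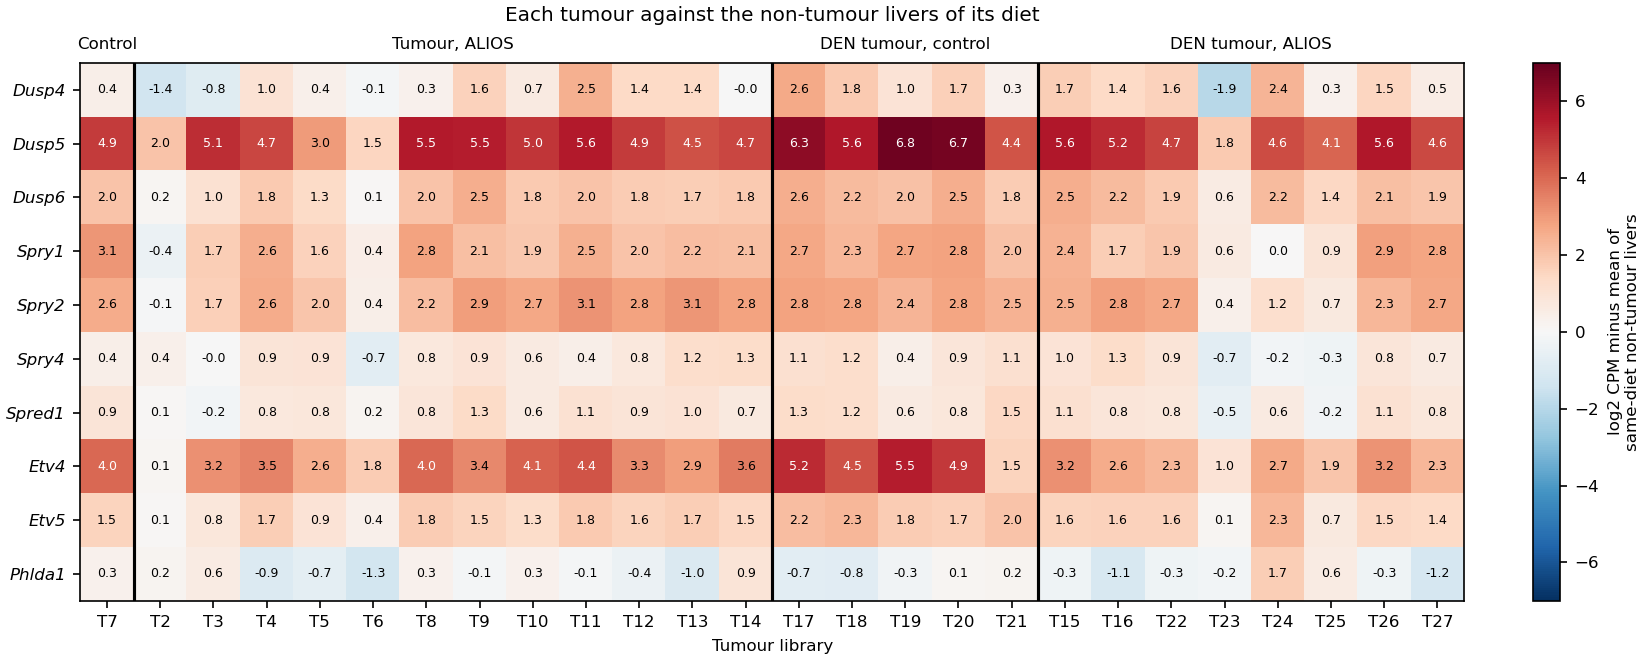
Each of the 26 tumours (columns, by group) for each gene (rows), as log2 CPM minus the mean of the non-tumour livers of the same diet; red is higher and blue lower. Dusp5 and Etv4 are red in nearly all tumours, the columns of T2, T6 and T23 are pale, and the row of Phlda1 is mixed.

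How the genes varied together among tumours was described by correlating each gene with Dusp6 over 25 tumours, after subtracting the mean of each group. Pearson's r with Dusp6 was 0.88 for Dusp5, 0.86 for Spry2, 0.85 for Etv5, 0.80 for Dusp4, 0.77 for Spred1, 0.76 for Etv4, 0.72 for Spry1 and 0.69 for Spry4, while it was 0.07 for Phlda1. Over 15645 genes the median r was -0.01 and the highest 5% lay above 0.71, so a broad set of genes shares the pattern. Without T6 and T2, the tumours farthest from the median of Dusp6, the median r of the 9 genes moved from 0.77 to 0.72, and Spearman's rho had a median of 0.61. Spry1 fell most among them, to 0.48. Among pairs of the 9 genes without Phlda1, the median r was 0.71 over 36 pairs, from 0.30 to 0.88, and Dusp5 with Etv4 reached 0.86. Phlda1 had a median r of -0.10 with the other 9. The 5 genes outside the set most like Dusp6 were Trpm4 (0.95), Smox (0.94), Disp1 (0.94), Scarb1 (0.94) and Rnf225 (0.93), which encode a cation channel, spermine oxidase, a Hedgehog release protein, the HDL receptor and a RING finger protein. These points share library depth and tissue make-up, and the tumours are not a random sample.

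**Figure D4:**
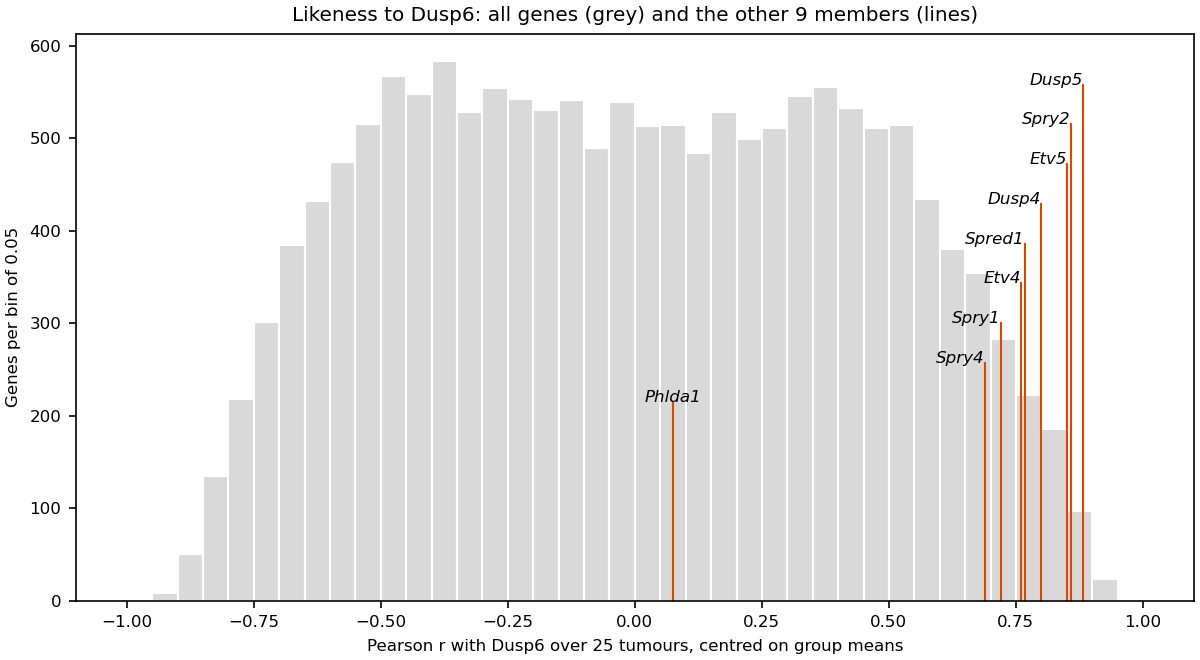
Distribution of Pearson's r with Dusp6 over 25 tumours, centred on group means, for 15645 genes (grey bars, number of genes per bin of 0.05), with the other 9 genes of the set as lines whose height has no meaning. All of them but Phlda1, at 0.07, lie at 0.69 or above.

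The transcripts of the pathway itself, upstream of these outputs, were compared in the same fits. The 16 genes of the RAS-RAF-MEK-ERK core, such as Braf and Map2k1, differed by small amounts, with 3 higher and 3 lower in ALIOS tumours, a median log2 difference of 0.06, and values of 0.49 for Shc1 and -0.34 for Grb2. In ALIOS DEN tumours 3 were higher and none lower, among them Shc1 (0.60) and Nras (0.33), and in control diet DEN tumours 3 were higher and 3 lower (Mapk3 0.54, Sos1 -0.51, Shc1 0.49). Transcript levels carry no information on mutation or phosphorylation. By the study's text, Ras mutations were common in tumours and absent from non-tumour tissue. The study found them in the control diet tumour without DEN and in most of the ALIOS tumours without DEN, and its text does not name the latter. The part of these mutations in the levels of the 10 genes was not tested. In the lists that follow, some genes were tested only where tumours were in the fit, and their calls are no independent support. The lists too were chosen with earlier results of these data known. Counts in these lists are to be read against the shares of all genes called higher, given with the 10 genes, and called lower, which were 25.9% in ALIOS tumours, 19.8% in ALIOS DEN tumours and 24.4% in control diet DEN tumours.

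Of 13 growth factor receptors, 2 were higher and 2 lower in ALIOS tumours, 1 and 2 in ALIOS DEN tumours, and 3 and 5 in control diet DEN tumours. Fgfr2, a receptor for fibroblast growth factors, was higher in all 3, by 1.85, 1.45 and 2.21 on the log2 scale in the same order. Egfr, the EGF receptor, was lower in ALIOS tumours (log2 -2.04, SE 0.36, adjusted p = 6.54e-05) and in control diet DEN tumours (-1.12, SE 0.34, adjusted p = 0.00902), and in ALIOS DEN tumours its difference of -1.07 was not called (adjusted p = 0.0941). Met, the HGF receptor, was lower in all 3 (-0.50, -0.61 and -0.46).

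Among 14 ligands, 11 or 12 were tested, and 8, 8 and 6 were higher and 1, 1 and 2 lower in the 3 comparisons. Hbegf, an EGF receptor ligand, had log2 differences of 2.02, 2.14 and 2.62. Its levels were 0.461 to 1.22 CPM in ALIOS livers and 0.526 to 7.60 CPM in ALIOS tumours. Igf2, a fetal growth factor, was called higher in ALIOS and ALIOS DEN tumours, but it was too low to be tested among livers alone. Areg, another EGF receptor ligand, was tested only in the control diet comparison, where it had 0 to 0.0361 CPM in the livers and 0.823 to 2.0 CPM in the 5 DEN tumours. It passed the filter there through the tumours, so no test is given.

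Other inhibitors of the pathway formed the next list. Of 16 listed, 10 of 15 tested were higher and 2 lower in ALIOS tumours, with a median log2 difference of 0.59, and 10 of 14 and 10 of 15 were higher, and 1 and 2 lower, in ALIOS and control diet DEN tumours (medians 0.64 and 0.77). Rasa2, a RAS GTPase-activating protein, had 1.65, 1.96 and 1.72, and Il17rd, the SEF inhibitor of FGF signalling, had 1.58, 1.38 and 1.68. Dusp9, a further ERK phosphatase, had at most 0.296 CPM in livers and at most 2.06 CPM in tumours, and it passed the filter through the tumours, so no fold is given. Pebp1, the RAF kinase inhibitor protein, was lower in ALIOS tumours (-0.85, SE 0.22, adjusted p = 0.00212) and control diet DEN tumours (-1.07, SE 0.15, adjusted p = 1.13e-05). Of 8 stress-related and other phosphatases of the DUSP family, 5, 5 and 4 were higher, led by Dusp8 (1.43, 2.03 and 2.21), and none was lower.

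Immediate early genes, which ERK and other kinases induce within minutes, were higher for 8, 9 and 10 of the 11 tested. Their median log2 differences were 1.21, 1.33 and 2.24. Of the 11, 9 were tested among livers alone. The others were tested only where tumours were in the fit, so their calls are no independent support. Egr1 had 2.33 to 39.2 CPM in ALIOS livers and 18.5 to 273.7 CPM in ALIOS tumours, a log2 difference of 3.43 (SE 0.52, adjusted p = 1.05e-05). Fos differed by 2.16, 3.16 and 3.0 and Ier3 by 2.09, 2.44 and 3.92. Of 14 further genes reported as ERK outputs, 9 or 10 were tested, and 4, 3 and 7 were higher and 1, 0 and 0 lower. Lif, a cytokine, had 0.0368 to 1.06 CPM in ALIOS livers and 0.225 to 19.1 CPM in ALIOS tumours. It was too low to be tested among livers alone, so no fold is given. Emp1 and Plaur were higher in all 3 comparisons, by 1.78 and 1.55 in ALIOS tumours. Ccnd1, encoding cyclin D1, differed by 0.93 in ALIOS tumours (SE 0.34, adjusted p = 0.0237), 0.95 in ALIOS DEN tumours (SE 0.44, adjusted p = 0.0823) and 3.12 in control diet DEN tumours (SE 0.17, adjusted p = 1.75e-11).

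**Figure D5:**
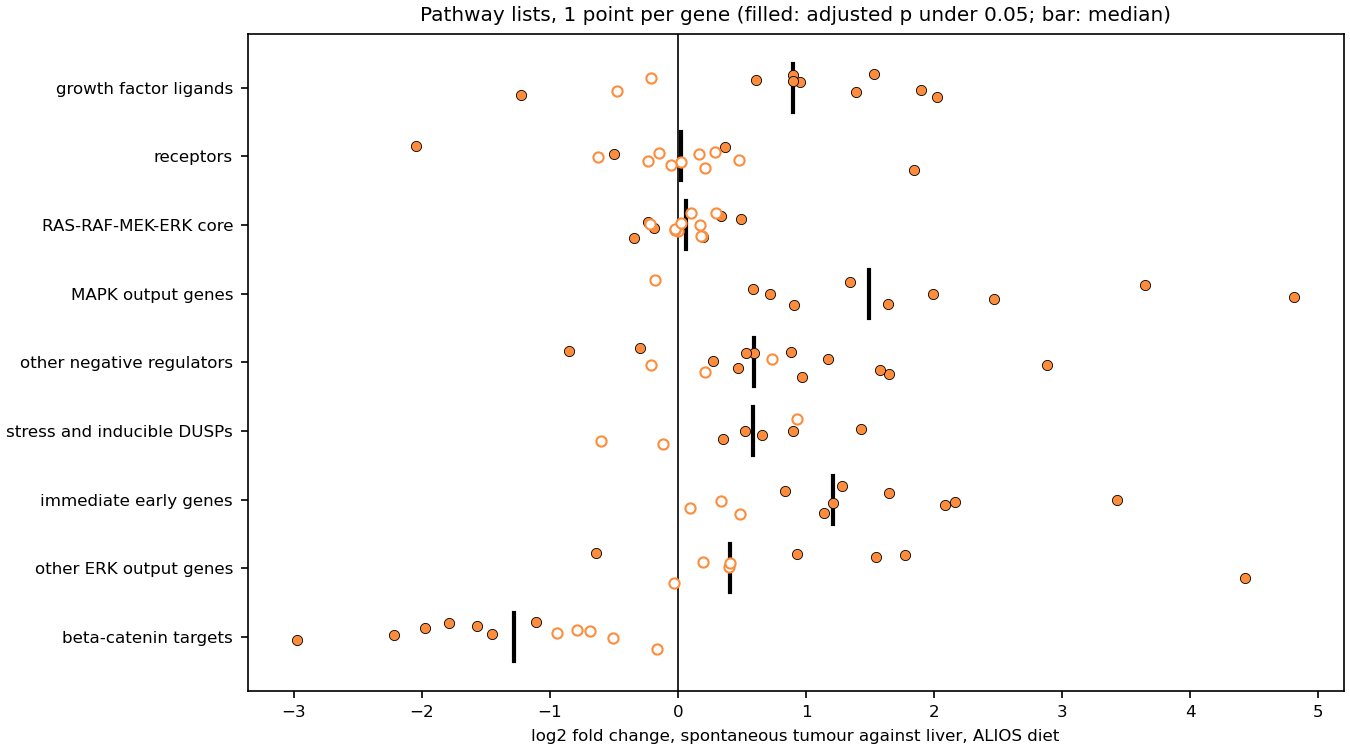
Log2 fold change (horizontal axis) of ALIOS tumours against ALIOS livers for each tested gene of 9 lists (rows). Each point is 1 gene, filled where the adjusted p is under 0.05, and the bars are list medians. The core cascade has its median at 0.06, the 10 output genes at 1.49, the immediate early genes at 1.21 and the beta-catenin targets at -1.28.

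Targets of beta-catenin went the other way in 2 of the comparisons. Of 12, 7 were lower and none higher in ALIOS tumours, and all 12 were lower in control diet DEN tumours (median log2 -2.36). In ALIOS DEN tumours 4 were higher and 1 lower. That group was uneven, with Glul at 17555 CPM in T24 and 2370 CPM in T25. The group median of Glul was 320 CPM, against 975 CPM in ALIOS livers. Axin2 had 104 CPM in T24 and a group median of 1.91 CPM, against 4.44 CPM in ALIOS livers. Proliferation genes, such as Mki67, were higher for 8, 10 and 10 of 10. Of these, 5 were tested among livers alone. The others were tested only where tumours were in the fit, so their calls are no independent support. Of 9 hepatocyte markers, 3 were higher in each comparison and 2, 1 and 1 lower. Of the markers of other cell types, 7 of 12 macrophage markers were lower and 1 higher in ALIOS tumours, 2 were lower and 1 higher in ALIOS DEN tumours, and 5 were lower and 2 higher in control diet DEN tumours. Stellate and fibroblast markers were higher for 2, 4 and 6 of 10 and lower for 2, 3 and 2, and endothelial markers for 3, 3 and 4 of 10 and lower for 1, 1 and 2. Cholangiocyte markers were higher for 3 of 8 tested in each, and T and B cell markers for 2 of 8, 0 of 9 and 3 of 8, with 1, 0 and 1 lower. Their summed level was 31.6 to 259 CPM in ALIOS livers and 36.1 to 484 CPM in ALIOS tumours for cholangiocyte markers, 207 to 596 and 117 to 548 CPM for stellate and fibroblast markers, 206 to 317 and 160 to 396 CPM for endothelial markers, and 7.35 to 24.5 and 5.09 to 28.3 CPM for T and B cell markers. The summed level of the 10 output genes was 82.5 to 151.7 CPM in ALIOS livers and 90.1 to 346.6 CPM in ALIOS tumours. The 8 kidney genes together reached at most 21.7 CPM in any of the 49 libraries. Their median sum was 0 CPM in control diet livers and 0.0589 CPM in ALIOS livers. In tumours it was higher, at 3.99 CPM on the ALIOS diet, 8.60 CPM in control diet DEN tumours and 11.7 CPM in ALIOS DEN tumours. In T7, 7 of the 8 kidney genes had no reads, so its 15.5 CPM came from Slc12a1 alone. In the control diet DEN tumours 5 of the 8 had no reads, and 1 was high enough to be tested. The sums in these tumours thus rest on few genes of the list. The part of these cell types in the differences of the 10 genes was not tested.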

How the data were processed

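RNA-seq was performed on liver and liver tumour tissues of C3H/He mice, in 50 libraries. The authors prepared stranded mRNA libraries, mapped the 100 bp paired reads with STAR (2 passes, mm10 genome), and used HTSeq with the Gencode M6 exons for counting. Tool versions and the strand option are not given in the sources used here. The authors deposited unnormalized counts for every gene. Groups were taken from the labels. Counts of reads are not counts of molecules.

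Counts were tested with edgeR 4.0.16 (limma 3.58.1, R 4.3.3), using filterByExpr, TMM scaling and the quasi-likelihood F test without covariates, on the groups compared alone, with Benjamini-Hochberg adjusted p under 0.05 over all genes tested taken as a call. Standard errors were derived from the F statistic. The study used DESeq2, which was run as an alternative (version 1.42.0), beside other size factors, no filter, all groups together, a block, T1 put back and leaving out single libraries. Log2 CPM used a prior count of 2. The fit was tested on simulated data. The closest pair of libraries of 1 group (N3 and N4) had a chi-square per gene of 13.0, where sampling noise gives about 1. Coordinates are those of Gencode M21 on GRCm38 (mm10), and the 250-base windows are from RefSeq.

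The 10 genes and the other lists were chosen with earlier results of these data known. Named were the 10 genes, from each other pathway list up to 3 called genes per comparison with the largest change, the 5 genes most like Dusp6, and marker lists by range. Genes named outside that rule, such as Braf, Nras, Sos1, Mapk3, Pebp1, Ccnd1, Glul, Axin2, Afp, Krt19 and Col1a1, were chosen after their values were seen. Python 3.11.15 with pandas 2.3.3 and numpy 2.4.6 was used for the descriptions, and matplotlib 3.10.9 for the plots. Some genes that the rule would name are not reported here.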

Additional observations from a re-analysis of the deposited data

Results flagged for a closer look

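In 20 sets of values (each of the 10 genes in the 2 DEN groups), 2 tumours lay apart from their group by Dixon's criterion, which chance alone meets in about 1 of 20 such sets. Dusp5 in T23 was at 0.98 log2 CPM, where the other 7 ALIOS DEN tumours lay between 3.22 and 4.77. Etv4 in T21 was at -1.28 log2 CPM, where the other 4 control diet DEN tumours lay between 1.64 and 2.67. The interaction of diet with the step of Etv4 from liver to DEN tumour was -2.46 on the log2 scale (edgeR adjusted p = 0.0341). Over the leave-one-out fits the edgeR adjusted p ran from 0.00889 to 0.0738, so the call was not kept in all of them. The liver side of the value rests on at most 11 reads. Etv4 passed the filter through the tumours, so this call is no independent support for a difference between the diets. T7, the single tumour of the control diet without DEN, entered no test, and 7 of the 10 genes were above all 12 control diet livers in it.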

How the results depend on the processing

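With DESeq2, other size factors, no low-count filter, all 6 groups fitted together and T1 put back, 291 of 296 values of single genes kept their side of the threshold. With all groups together, Etv5 lost its diet call (adjusted p = 0.187), so the count of genes higher on the ALIOS diet in liver went from 1 to 0, as it did with no filter (adjusted p = 0.0569). The Etv4 interaction lost its call with all groups (adjusted p = 0.0520), so its count went from 1 to 0, and Spry4 lost its call in ALIOS tumours with all groups (adjusted p = 0.0662) and in control diet DEN tumours with no filter (adjusted p = 0.0598). Over 94 fits without 1 library, 893 of 917 values kept their side and no called value changed sign, while 10 uncalled values crossed 0 in some fit. Livers were left out only for diet in liver. The counts then ranged from 0 to 1 for diet in liver, 7 to 9 in ALIOS tumours, 8 to 9 in control diet DEN tumours, and 0 to 1 for the interaction, whose leave-one-out was chosen after seeing the data. The numbers of tumours and livers are separate running series and give no shared animal, and same-numbered libraries had correlations of -0.21 to 0.06. Under a replicate block on these numbers, 4 genes instead of 9 were called in ALIOS tumours (538 genes in all) and 5 instead of 8 in ALIOS DEN tumours (1515 in all), a fit that leaves few degrees of freedom. Low counts of Etv4 and Dusp5 in liver limit the precision of their folds.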
